A study of Macaca fascicularis with 16 samples.

Results

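The HES and HEY genes are the classical transcriptional targets of Notch signalling. Along the aorta of normal young cynomolgus monkeys (Macaca fascicularis), 6 genes were taken up: HES1, HES4, HEY1, HEY2 and HEYL, together with the Notch regulator NRARP. They were chosen by symbol, through the NCBI GeneIDs of that species. Of the 6 genes, 5 had a row among the 32846 rows of the count table, and all 5 passed the filter on low counts. No row carried the GeneID of NRARP (123569032), a feedback inhibitor of Notch, which was not analysed here. Only 74.9% of rows matched a symbol, and a row of NRARP under another GeneID was not sought. Bulk RNA sequencing covered 16 libraries, 4 each of infrarenal, suprarenal, descending and ascending aorta. All were labelled as baseline, without treatment, and the labels give no sex, individual ages or animal numbers. They do not say that libraries of 1 region came from separate animals, so the p-values measure only the spread between these libraries.

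A Notch receptor that binds a ligand of the Jagged or Delta-like family on a neighbouring cell is cut, and its intracellular part enters the nucleus and joins the DNA-binding protein RBPJ. The complex switches on HES and HEY genes, whose products are basic helix-loop-helix repressors that recruit corepressors of the TLE, NCOR and HDAC families. In the arterial wall, NOTCH3 acts mainly in smooth muscle and pericytes, NOTCH1 and NOTCH4 are prominent in endothelium, and JAG1 is a ligand of both layers. The study is titled for NOTCH3 and the infrarenal aorta, so the question here was whether the target genes followed the receptor along the vessel.

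Library totals ran from 14402824 to 21407514 counts. Levels below are CPM, a gene's counts scaled to a common library total, after TMM normalization, the trimmed-mean scaling of edgeR. Every smooth muscle marker listed was found in all regions, and ACTA2 ranged from 3810 to 18600 CPM over the 16 libraries. Libraries also held endothelial RNA (PECAM1 at 112 to 1050 CPM) and, in very uneven amounts, adipocyte RNA (ADIPOQ at 1.23 to 404 CPM), and in such bulk samples fewer cells of a type and less RNA per cell cannot be told apart. Of the libraries, 3 stood apart in ways that touch these genes. Infrarenal replicate 1 had a TMM factor of 0.736, against 0.977 to 1.077 in the other 15, and its summed smooth muscle markers stood at 58900 CPM where the next highest library had 37400. Suprarenal replicate 3 and ascending replicate 4 had the lowest summed smooth muscle markers of all, 14000 and 18200 CPM, and the highest summed endothelial markers of their regions, 3710 and 2180 CPM.

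HES4 was the 1 gene of the 5 that passed the test among regions, and it was higher in the infrarenal aorta than in every other library of the study. HES4 (GeneID 102120050) encodes a HES repressor that humans and other primates have and mice lack. It had 215, 84.6, 72.5 and 58.9 CPM in the infrarenal libraries, 26.5, 43, 53.4 and 9.74 CPM in the suprarenal, 24.6, 19.3, 13.4 and 8.7 CPM in the descending, and 14.6, 16.2, 17.5 and 17.1 CPM in the ascending libraries. The lowest infrarenal library lay above the highest of the other 12, a suprarenal one, and the suprarenal libraries spread over the whole range from descending levels upward. HES4 rose by 2.37 on the log2 scale in infrarenal libraries relative to the average of the remaining 3 regions, a fold of 5.18 (95% interval 3.1 to 8.65, adjusted p = 0.00129, edgeR quasi-likelihood F test). Adjusted p-values under 0.05, taken over all 15926 tested genes, are called here. In this comparison 2.98% of all tested genes were called and 1.37% were called higher, and 0.471% had infrarenal libraries all above the other 12.

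**Figure D1:**
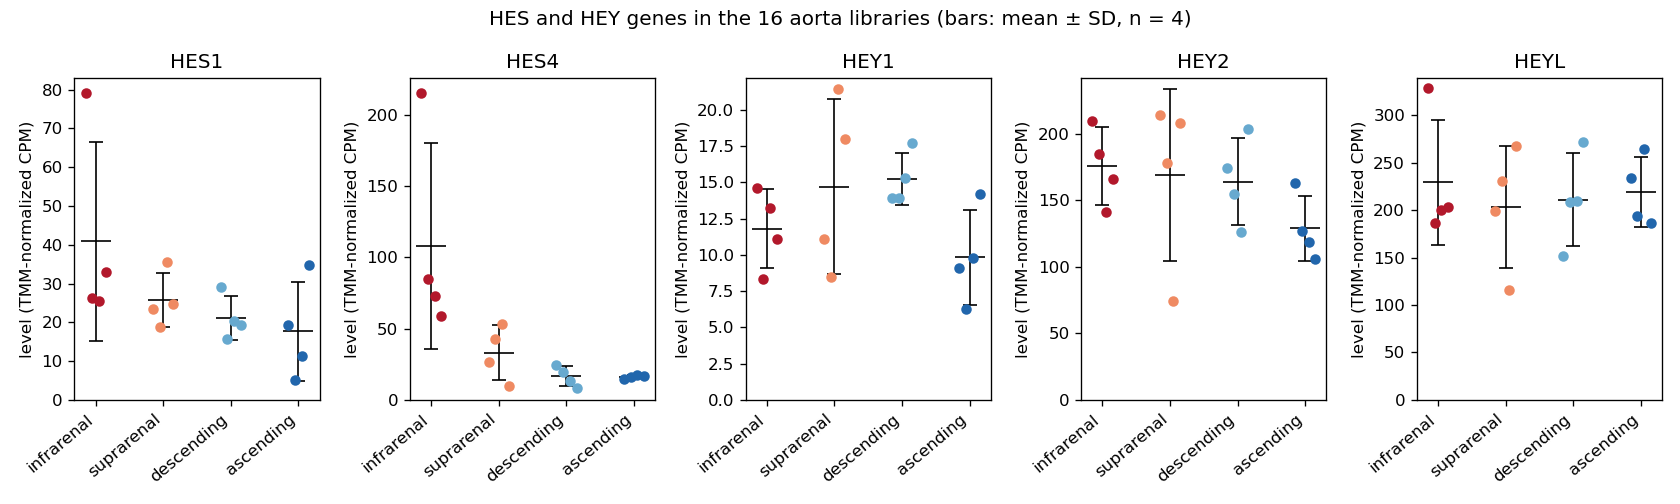
Level of each gene in TMM-normalized CPM (vertical axis, linear and starting at 0, with its own range in each panel) for the 4 libraries of each region (points, replicates 1 to 4 from left to right), with mean ± SD as black bars. The 4 HES4 infrarenal points, at 58.9 to 215 CPM, lie above all 12 others, while HEY1, HEY2 and HEYL overlap between regions.

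By region, HES4 averaged 108 ± 72.1 CPM in infrarenal, 33.2 ± 19.2 in suprarenal, 16.5 ± 6.94 in descending and 16.4 ± 1.29 in ascending aorta (SD, n = 4 each). Against the descending aorta the infrarenal level was 6.52-fold higher (log2 2.70, SE 0.50, adjusted p = 0.00937), where 1.65% of genes were called (0.634% higher) and 4.55% had all infrarenal libraries above the descending ones. Against the ascending aorta it was 6.57-fold higher (log2 2.72, SE 0.50, adjusted p = 0.00532), where 3.49% of genes were called (1.43% higher) and 2.97% had infrarenal libraries all above. Against the adjacent suprarenal aorta the infrarenal libraries again lay all above, as 0.867% of genes did, but the difference of 1.70 (SE 0.48, 95% interval 0.68 to 2.71) did not pass over all genes (adjusted p = 0.277). In that pair 0.201% of genes were called, and DESeq2 called HES4 there (log2 1.73, adjusted p = 0.0331). The suprarenal mean was 2.01-fold the descending one with overlapping libraries (95% interval 1 to 4.04, adjusted p = 1), and the descending and ascending means differed by 0.01 (95% interval -0.99 to 1.02). Mean HES4 levels were thus highest in the infrarenal and next in the suprarenal aorta, with no order between the descending and ascending aorta, and no step between neighbouring regions passed the edgeR test.

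Infrarenal replicate 1 carried the highest HES4 value, and the calls were kept without it. Without that library the infrarenal mean was 72 CPM and the difference from the other 3 regions was 1.80 (adjusted p = 0.00661). Without it the difference was 2.13 against the descending aorta (adjusted p = 0.0198) and 2.14 against the ascending aorta (adjusted p = 0.00848). Against the suprarenal aorta, where HES4 was not called with all libraries, it was 1.13 without that library (adjusted p = 0.515). With infrarenal replicate 1, suprarenal replicate 3 and ascending replicate 4 all left out, HES4 still rose by 1.91 against the other regions (adjusted p = 0.0028). The call in the infrarenal comparison held in all 24 alternative fits.

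HES1, the most widely used of the HES repressors and a direct Notch target in many cell types, had its highest mean in the infrarenal aorta but did not pass. HES1 (GeneID 102146862) had 79.2, 26.2, 25.4 and 32.9 CPM in the infrarenal libraries, 23.5, 18.9, 35.5 and 24.7 CPM in the suprarenal, 29.2, 15.7, 20.3 and 19.3 CPM in the descending, and 19.2, 5.25, 11.4 and 34.9 CPM in the ascending libraries. Apart from infrarenal replicate 1 at 79.2 CPM, the infrarenal libraries lay within the range of the other regions. The ascending libraries were the most scattered relative to their mean, with a coefficient of variation of 72.4%. Means were 40.9 ± 25.7, 25.7 ± 7, 21.1 ± 5.73 and 17.7 ± 12.8 CPM from infrarenal to ascending (SD, n = 4 each). The infrarenal difference from the other 3 regions was 0.94 (SE 0.37, 95% interval 0.17 to 1.72, unadjusted p = 0.0204, adjusted p = 0.243), and it was 0.41 (adjusted p = 0.699) without infrarenal replicate 1.

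The largest HES1 difference between 2 regions was 1.21, infrarenal against ascending (SE 0.48, adjusted p = 0.254). It changed with ascending replicate 4, the library with the highest HES1 level of its region. Without that library the difference was 1.77 (adjusted p = 0.046), and without the 3 libraries that stood apart it was 1.24 (adjusted p = 0.0388), while without infrarenal replicate 1 it was 0.67 (adjusted p = 0.41). In the other pairs HES1 differed by 0.25 to 0.95, with adjusted p-values of at least 0.384.

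HEY1 was not called in any comparison of regions. HEY1 (GeneID 102137167) encodes a HEY repressor that acts in arterial endothelium and responds to Notch and to BMP signals. It had 14.6, 8.31, 13.2 and 11.1 CPM in the infrarenal libraries, 11.1, 8.47, 21.4 and 18 CPM in the suprarenal, 13.9, 13.9, 15.3 and 17.7 CPM in the descending, and 9.08, 6.29, 9.81 and 14.2 CPM in the ascending libraries. The groups overlapped in every pair, with the highest single value in suprarenal replicate 3. The infrarenal difference from the other regions was -0.14 (95% interval -0.66 to 0.38, adjusted p = 0.873), so the interval holds changes from 0.632-fold to 1.3-fold. HEY1 averaged 15.2 ± 1.8 CPM in the descending aorta and 9.84 ± 3.27 CPM, its lowest regional mean, in the ascending aorta (SD, n = 4 each, log2 difference 0.63, 95% interval -0.01 to 1.26, adjusted p = 0.756).

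HEY2, a repressor needed in vertebrate embryos for arterial identity and heart development and also active in smooth muscle, gave similar values in 3 of the regions and a lower mean in the ascending aorta. HEY2 (GeneID 102121748) had 210, 185, 141 and 166 CPM in the infrarenal libraries, 214, 178, 74.4 and 208 CPM in the suprarenal, 174, 155, 126 and 204 CPM in the descending, and 163, 127, 119 and 106 CPM in the ascending libraries. The value of 74.4 CPM in suprarenal replicate 3 was the lowest of the 16, and all pairs of regions overlapped. Infrarenal against ascending gave 0.45 (95% interval -0.13 to 1.02, adjusted p = 0.59), and infrarenal against the other 3 regions gave 0.20 (95% interval -0.26 to 0.66, adjusted p = 0.765).

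HEYL, described as a target of NOTCH3 in vascular smooth muscle, was the flattest of the 5 along the aorta. HEYL (GeneID 102133602) had 328, 186, 200 and 203 CPM in the infrarenal libraries, 199, 231, 116 and 267 CPM in the suprarenal, 152, 208, 210 and 272 CPM in the descending, and 234, 194, 264 and 186 CPM in the ascending libraries. Infrarenal replicate 1 was the highest of the 16, and every pair of regions overlapped. HEYL averaged 229 ± 66.1 CPM in infrarenal, 203 ± 64.3 in suprarenal, 211 ± 49.1 in descending and 219 ± 36.4 in ascending aorta (SD, n = 4 each). The infrarenal difference from the other regions was 0.12, with a 95% interval from -0.32 to 0.56, or 0.801-fold to 1.47-fold (adjusted p = 0.874). No pair of regions differed by more than 0.17 on the log2 scale, and the sign of the infrarenal difference turned without infrarenal replicate 1 (-0.10).

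**Figure D2:**
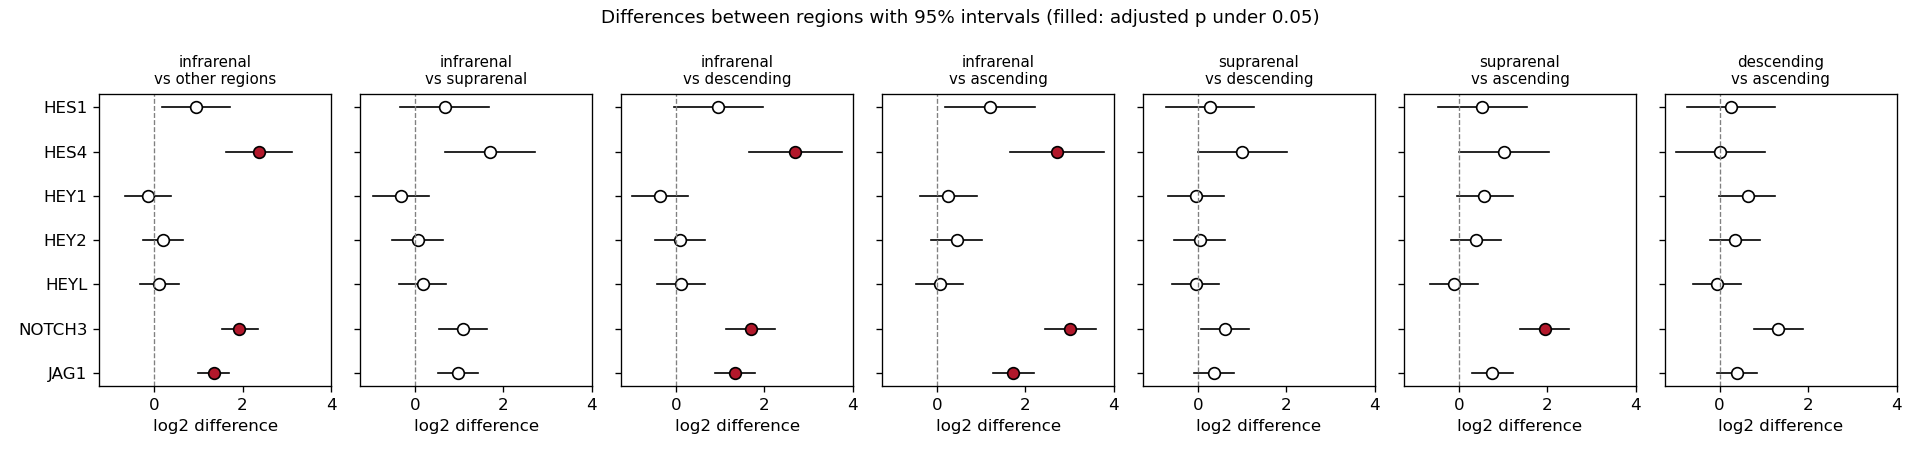
Log2 difference (first region minus second, horizontal axis) of the 5 genes and of NOTCH3 and JAG1 in each comparison, with 95% intervals as lines. Filled points passed an adjusted p of 0.05 over all genes, and HES4 is the only HES or HEY gene with a filled point, in 3 of the 7 comparisons.

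Counted over the 5 genes, 1 passed the test of any difference among the 4 regions (HES4, adjusted p = 0.00682), where 2.02% of all tested genes were called. HES4 was also the single gene called in the infrarenal comparison with the other regions and with the descending and ascending regions, always higher, and 4 were not called in each. With edgeR, 0 of the 5 were called for infrarenal against suprarenal, with 1 at an unadjusted p under 0.05, and 0.201% of all genes. In that pair DESeq2 called 1 of the 5 and 167 of all 15926 tested genes. There limma voom called 0 of the 5 and 15 of all tested genes. For suprarenal against descending 0 were called, with 0 at an unadjusted p under 0.05, and 0% of all genes. For suprarenal against ascending 0 were called, with 1 at an unadjusted p under 0.05, and 0.257% of all genes. For descending against ascending 0 were called, with 0 at an unadjusted p under 0.05, and 0.113% of all genes. In these last 3 pairs DESeq2 and limma voom also called 0 of the 5. The median infrarenal difference of the 5 genes was 0.20 beside 0.03 over all tested genes.

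The receptor NOTCH3 and the ligand JAG1, which belong to the upper part of the pathway, were both called higher in the infrarenal aorta. NOTCH3 (log2 1.93 relative to the other regions, SE 0.19, adjusted p = 8.44e-05) averaged 458 ± 49.6 CPM in infrarenal, 216 ± 41.7 in suprarenal, 142 ± 64.2 in descending and 56.3 ± 12.2 in ascending aorta, and the suprarenal level was called above the ascending one (log2 1.94, SE 0.26, adjusted p = 0.00284). JAG1 (log2 1.35, SE 0.16, adjusted p = 0.000257) averaged 296 ± 31.1, 151 ± 28.4, 117 ± 38.5 and 89.1 ± 13 CPM in the same order of regions (SD, n = 4 each). For infrarenal against suprarenal neither passed (NOTCH3 1.09, adjusted p = 0.131, and JAG1 0.97, adjusted p = 0.0872). For both, the infrarenal libraries lay all above the suprarenal ones, as for 0.867% of genes. In that pair NOTCH3 was called in 2 and JAG1 in 3 of 9 other settings. NOTCH3 was also called there in 1 of the 16 fits with a library left out. Suprarenal against ascending gave 1.02 for HES4 (adjusted p = 0.887), 0.53 for HES1, 0.58 for HEY1, 0.39 for HEY2 and -0.11 for HEYL, none of them called. Whether the genes differ from NOTCH3 in their regional differences was not tested.

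Besides the HES and HEY members, 71 genes of the pathway were listed, of which 70 had a row and 63 were tested. NOTCH3 and JAG1 were the 2 called in the infrarenal comparison with the other regions, both higher, and 61 were not called. That count of 2 of 63 is close to the 2.98% called over all tested genes. The median of the 63 was 0.01, beside 0.03 over all genes. Of the 4 receptors, NOTCH1 gave 0.75 (adjusted p = 0.491), NOTCH4 gave 0.41 (adjusted p = 0.807) and NOTCH2 gave -0.15 (adjusted p = 0.828). Of the 5 tested ligands, JAG2 gave 1.03 (adjusted p = 0.342), the endothelial ligand DLL4 gave -0.10 (adjusted p = 0.977) and the non-canonical ligand DLK1 gave -2.21 (adjusted p = 0.418). DLK1 was scarce, with 0 to 65 counts per library, and averaged 3.31 CPM in the ascending aorta and at most 0.42 CPM elsewhere. None of 14 genes for receptor cleavage and glycosylation, 8 nuclear effectors, 14 regulators of turnover and 11 corepressors was called in any comparison. Among them RBPJ, the DNA-binding partner of cut Notch receptors, differed by -0.11 (SE 0.11, adjusted p = 0.716), the coactivator MAML2 by -0.33 (adjusted p = 0.418), the corepressors NCOR1 by -0.24 (adjusted p = 0.672) and TLE3 by 0.10 (adjusted p = 0.881), and the ubiquitin ligase MIB2 by 0.32 (adjusted p = 0.552).

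Other repressors of the HES family were scarce or undetected as counts, while BHLHE40 (51.7 to 142 CPM) and BHLHE41 (13.5 to 42.2 CPM) of the same list were not. HES2, HES3, HES5 and HES7 had at most 9 counts in any library and did not pass the filter, and HES6 ranged from 0.68 to 3.44 CPM. The ID genes, whose products pair with basic helix-loop-helix factors and which answer to BMP, were not called either. ID3 gave 0.90 (SE 0.29, adjusted p = 0.125) and ID1 gave 0.96 (SE 0.41, adjusted p = 0.309) in infrarenal libraries relative to the other regions. The summed level of this list of 12 genes stood at 2860 CPM in infrarenal replicate 1, where the next highest library had 1170 CPM.

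The markers of vessel-wall cells moved with region in part. Of 12 endothelial markers 10 had a positive difference between the infrarenal aorta and the other regions (median 0.55), and the adhesion molecule ESAM was called (1.72, SE 0.35, adjusted p = 0.0126). Of 10 arterial endothelial markers 9 had a positive difference (median 0.45), and the connexin GJA5 was called (1.72, SE 0.40, adjusted p = 0.0263). Of 9 tested pericyte and mural markers PDGFRB (0.69, SE 0.10, adjusted p = 0.00111), MCAM (1.12, SE 0.19, adjusted p = 0.00316) and KCNJ8 (0.88, SE 0.21, adjusted p = 0.0293) were called higher. Over the 9, 7 had a positive and 2 a negative difference (median 0.53), and the connexin GJC1 had -1.76 (SE 0.46, adjusted p = 0.0534). Against the suprarenal aorta alone, 6 endothelial markers were higher and 6 lower in the infrarenal aorta (median 0). Arterial markers split 5 and 5 there (median 0.04) and mural markers 5 higher and 4 lower (median 0.14), with 0 called in each list. For suprarenal against descending, all 12 endothelial markers were higher (median 0.92, 0 called). None of 10 contractile smooth muscle markers was called in any comparison (infrarenal median 0.23).

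Set beside HES4, summed endothelial markers ran from 1110 to 3050 CPM in infrarenal, 612 to 3710 in suprarenal, 817 to 1120 in descending and 542 to 2180 CPM in ascending libraries. Ascending replicate 4 had 2180 CPM of endothelial markers and 17.1 CPM of HES4. Infrarenal replicate 1 had 1110 CPM of endothelial markers and 215 CPM of HES4. In suprarenal replicate 3 both were the highest of the region, at 3710 CPM of endothelial markers and 53.4 CPM of HES4. Infrarenal replicate 3 had 3050 CPM of endothelial markers, the highest of its region, and 72.5 CPM of HES4. Summed mural markers ran from 4780 to 6690 CPM in infrarenal, 1850 to 8200 in suprarenal, 5550 to 6630 in descending and 1980 to 3440 CPM in ascending libraries. The part of either cell type in the HES4 result was not tested. Of the remaining lists, fibroblast (median 0.11, COL1A1 called higher, 1.07), adipocyte (0.87, 0 called), cardiac muscle (-0.99, 0 called), mesothelial (-1.33, KRT8 called lower), leukocyte (-0.08, 0 called), Schwann cell (-0.64, 0 called) and immediate-early genes (-0.84, 0 called) were set against the other regions in the same way. The adipocyte median differed by pair, at 2.63 for infrarenal against ascending, 0.09 against suprarenal and -0.6 against descending.

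**Figure D3:**
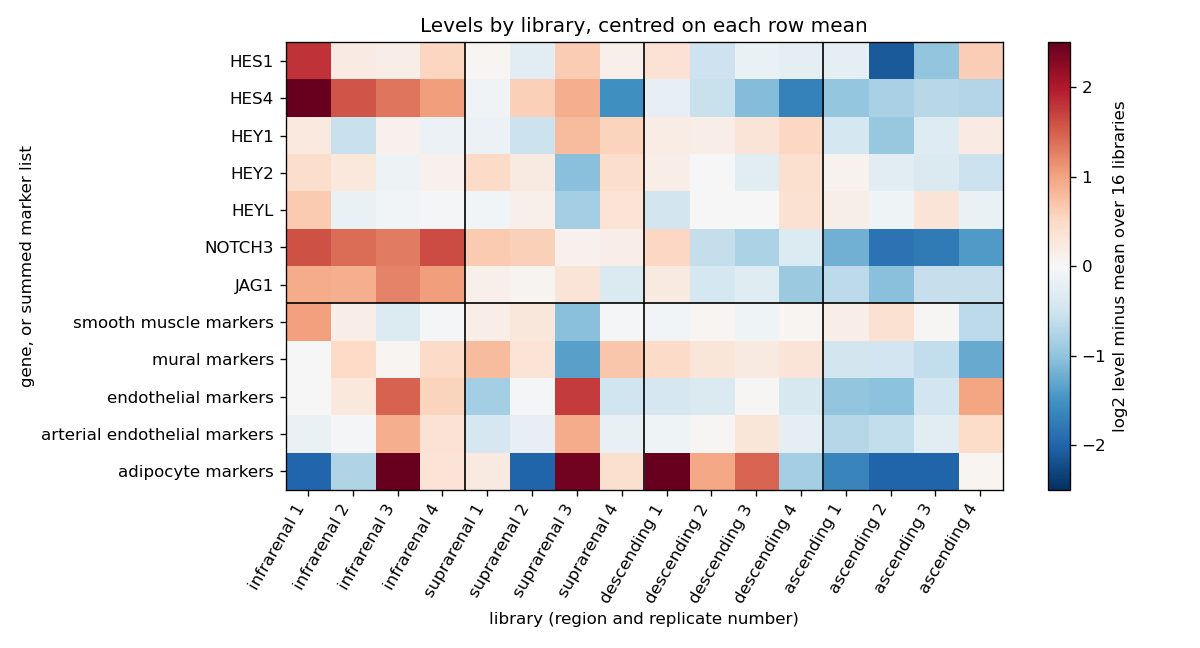
Log2 level of each gene, and of the summed CPM of 5 marker lists, in each of the 16 libraries (columns, by region), minus the mean of its row over the 16 libraries. Red is above and blue below the row mean, with colours ending at 2.5 log2 units, and suprarenal replicate 3 is blue for HEY2, HEYL, smooth muscle and mural markers and red for HES1, HES4, HEY1 and endothelial markers.

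In suprarenal replicate 3 and ascending replicate 4, HEY2 and HEYL were at their lowest of the region while HES1 and HEY1 were at their highest. Suprarenal replicate 3, with the lowest summed smooth muscle markers and the highest summed endothelial markers of the 16, had the lowest HEY2 (74.4 CPM) and HEYL (116 CPM) levels of all libraries and the highest HEY1 level (21.4 CPM). It also had the highest suprarenal values of HES1 (35.5 CPM) and HES4 (53.4 CPM). Ascending replicate 4, the library with the next lowest smooth muscle markers, had the lowest HEY2 (106 CPM) and HEYL (186 CPM) levels and the highest HES1 (34.9 CPM) and HEY1 (14.2 CPM) levels of its region. Infrarenal replicate 1 did not show this split. There, where smooth muscle markers were highest, HES1, HES4 and HEYL were the highest of the 16, HEY2 at 210 CPM was close behind suprarenal replicate 1 at 214 CPM, and HEY1 at 14.6 CPM lay within the range of the others. The part of cell makeup in these single-library values was not tested.

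Genes with the most similar pattern were found for each of the 5 by Pearson's r of log2 CPM over the 16 libraries, among 12442 genes with a symbol and a mean log2 CPM of at least 1. The libraries share regions and in part replicate numbers, so r is a ranking measure here and carries no test. For HES4 they were P2RX1 (r = 0.92), a cation channel opened by ATP, EHD3 (0.92), a protein of endosomal recycling, and CTNNA3 (0.91), the catenin alpha-T. P2RX1 averaged 190 ± 58.1 CPM in infrarenal, 35.5 ± 50.8 in suprarenal, 4.53 ± 3.49 in descending and 2.62 ± 1.46 in ascending aorta. With the region means taken out, r between HES4 and these genes was 0.73, 0.73 and 0.68, and 0 of the 3 stayed among the 3 most similar.

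For HES1 the most similar genes were LOC101926364 (r = 0.94), RARRES2 (0.92), which encodes the adipokine chemerin, and DHRS3 (0.91), a retinal reductase. For HEY1 they were CMTM3 (0.83), C2CD2 (0.82) and LOC102124195 (0.82). For HEY2 they were CWC27 (0.93), a spliceosome protein, KLHL15 (0.93), a ubiquitin ligase adaptor, and SLC2A11 (0.92), a sugar transporter. For HEYL they were SPINT2 (0.88), an inhibitor of serine proteases, CSNK1D (0.86), a casein kinase, and ARPC2 (0.85), a subunit of the Arp2/3 complex of actin branching. These lists changed with the measure of likeness. With rank correlation, deviations from region means and infrarenal replicate 1 left out, 1 of the 3 genes stayed each time for HES1, 0 to 1 for HEY1, and 0 to 2 for HEY2, HEYL and HES4. No other HES or HEY gene and neither NOTCH3 nor JAG1 was among the 3 most similar genes of any of the 5, although JAG1 reached r = 0.87 and NOTCH3 r = 0.75 with HES4. With the region means taken out, r with HES4 was 0.54 for JAG1 and 0.26 for NOTCH3.

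**Figure D4:**
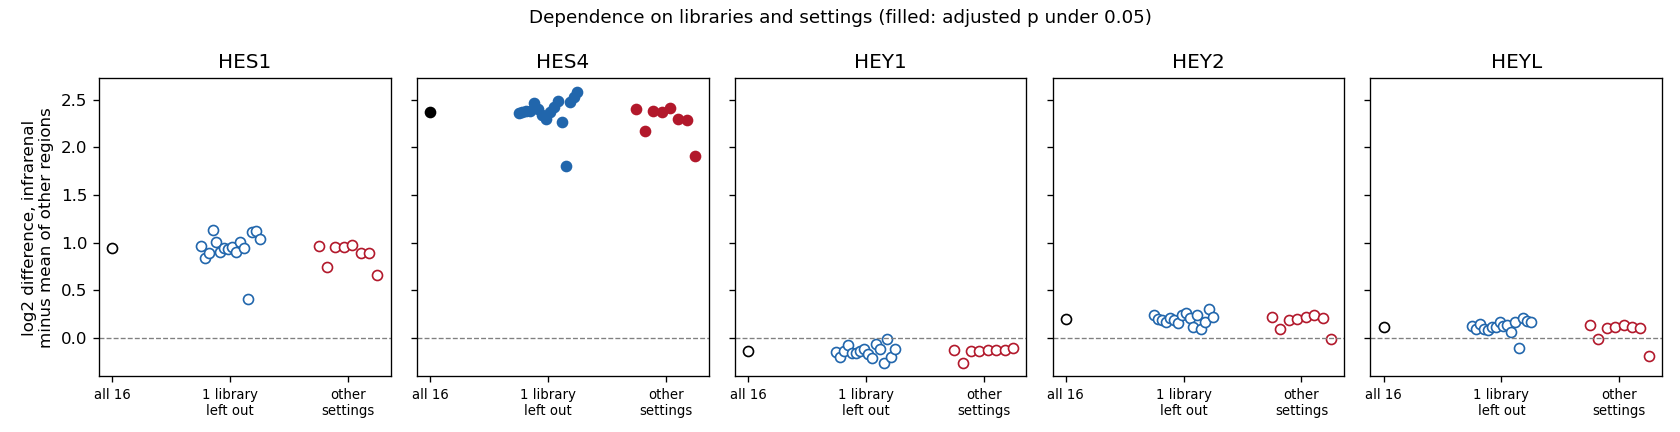
Log2 difference of each gene, infrarenal minus the mean of the other 3 regions (vertical axis), with all 16 libraries (black), with 1 library left out in turn (blue, 16 fits) and under the other settings (red, 8 fits). Filled points passed an adjusted p of 0.05, as all HES4 points did, and the lowest HES1 and HES4 points among the blue ones, at 0.41 and 1.80, are the fits without infrarenal replicate 1.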

How the data were processed

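Raw counts per NCBI GeneID were deposited by the authors for 16 libraries, and fastp, HISAT2 (2.0.5) and featureCounts (1.5.0-p3) are named in the submitters' processing notes. Genome build and strand setting: not given in the sources used here. Values in the series table were equal to those in the 16 library files. Symbols were taken by GeneID from RefSeq's annotation of assembly T2T-MFA8v1.1, used for names only, and 24609 of 32846 rows (74.9%) matched. No sequences are shown.

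Genes were kept with filterByExpr (minimum count 10, minimum total 15), which left 15926. Counts were TMM-normalized and fitted with edgeR 4.0.16 (R 4.3.3), glmQLFit and glmQLFTest, with a mean per region and all 16 libraries. The contrasts were any difference among regions, infrarenal against the mean of the other 3, and the 6 pairs. P-values were Benjamini-Hochberg adjusted over all tested genes and called under 0.05. The pipeline was tested on simulated data. Libraries within a region differed by far more than counting noise (chi-square over its degrees of freedom at least 28.5), so none repeated another.

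The members and lists (Notch receptors, ligands, processing, nuclear effectors, turnover, corepressors, related repressors, markers of cell types, immediate-early genes) were chosen with earlier results of these data known. Genes were named by a rule: the members, NOTCH3 and JAG1 throughout, up to 4 per list with the smallest p for any difference, and the 3 most similar to each member. Alternatives were RLE factors, library totals, 2 other filters, DESeq2 1.42.0, limma voom (limma 3.58.1), a replicate block, only the libraries compared, each library left out, and 3 libraries left out together. Similar genes were also sought by rank correlation, by deviations from region means and, chosen after seeing the data, without infrarenal replicate 1.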

Additional observations from a re-analysis of the deposited data

Results flagged for a closer look

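In infrarenal replicate 1, 3 of the 5 genes lay far above the other 3 infrarenal libraries by Dixon's test at the 95% level, HES1 at 79.2 CPM (next highest 32.9), HES4 at 215 CPM (next highest 84.6) and HEYL at 328 CPM (next highest 203). Dixon's test was applied to 20 groups of 4 libraries, and chance flags about 1 in 20. It used CPM and was not repeated on the log2 scale of the other comparisons, where high values stand out less. All 3 flags fall on the library with the lowest TMM factor (0.736) and the highest summed smooth muscle markers (58900 CPM), whose part in these values was not tested.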

How the results depend on the processing

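The number of HES and HEY genes called kept its value in every comparison and setting tried, with 2 exceptions. For infrarenal against suprarenal it was 1 with DESeq2 (HES4) and 0 with edgeR. For infrarenal against ascending it was 2 (HES1 and HES4) with 3 libraries left out together (infrarenal 1, suprarenal 3, ascending 4) and 1 to 2 with each library left out in turn. The cause was not tested.

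No called difference turned its sign. Small uncalled differences did, and the cause was not tested. With those 3 libraries left out, infrarenal against the other regions was -0.01 for HEY2 and -0.19 for HEYL, infrarenal against suprarenal -0.29 for HEY2 and -0.25 for HEYL, and HEYL stood at -0.10 for infrarenal against descending, -0.23 for infrarenal against ascending, 0.15 for suprarenal against descending and 0.02 for suprarenal against ascending. With library totals in place of TMM, HEYL stood at -0.01, -0.01 and -0.07 for infrarenal against the other regions, descending and ascending, and HEY2 at -0.04 and -0.02 for infrarenal against suprarenal and descending. With limma voom, suprarenal against descending was -0.06 for HEY2 and descending against ascending -0.10 for HES4.

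With each library left out in turn, HEYL ranged from -0.10 to 0.21 (infrarenal against the other regions), -0.05 to 0.33 (infrarenal against suprarenal), -0.10 to 0.27 (infrarenal against descending), -0.16 to 0.16 (infrarenal against ascending), -0.21 to 0.14 (suprarenal against descending), -0.27 to 0.08 (suprarenal against ascending) and -0.21 to 0.07 (descending against ascending). HEY2 ranged from -0.18 to 0.20 (infrarenal against suprarenal), -0.02 to 0.21 (infrarenal against descending) and -0.09 to 0.28 (suprarenal against descending). HEY1 ranged from -0.28 to 0.15 (suprarenal against descending), and for descending against ascending HES1 ranged from -0.06 to 0.82 and HES4 from -0.25 to 0.22.

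Replicate numbers recur in every region, but the labels do not say that they mark animals. Deviations from region means correlated at -0.173 to 0.575 (median 0.344) over 24 same-number pairs, 19 of them over 0.1, against a median of -0.0947 over 72 other-number pairs. Of 16 libraries 15 lay closest to their own number, a hint of pairing from the data and not from the design. Pairing was accepted only with every same-number pair over 0.1, so the fit without the block was kept. Over all 15926 tested genes, the block raised the number called for infrarenal against the other regions from 474 to 680. A replicate block changed no call of the 5 genes: HES4 was 2.29 higher for infrarenal against the other regions (adjusted p = 0.00112), while 2 uncalled values turned, to -0.02 for HEY2 (suprarenal against descending) and -0.15 for HES4 (descending against ascending).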
